A study of Mus musculus with 3 samples.

Results

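The vascular growth factors and receptors examined here are 10 of the 31053 genes measured in mouse gallbladder cells. They were chosen by name, with earlier results of these data known. They are the ligands *Vegfa*, *Vegfc* and *Vegfd*, the VEGF receptors *Flt1*, *Kdr* and *Flt4*, and the co-receptor *Nrp1*. The others are the angiopoietins *Angpt1* and *Angpt2*, and the angiopoietin receptor *Tek*. Male C57BL/6 mice received nanoplastics, plastic particles below the micrometre scale, by oral gavage for 3 weeks or for 6 weeks, or vehicle for 6 weeks as the control. Each of these 3 groups was 1 droplet-based 3′ single-cell library from 10 pooled gallbladders digested with trypsin. The deposited barcodes carry a library number, 1, 2 or 3, that neither the labels nor the matrix ties to a group. The groups were therefore not compared, no test was possible, and values are given for each numbered library. The libraries are not replicates of a condition.

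VEGF-A binds FLT1 and KDR (VEGF receptors 1 and 2) on blood endothelium, and KDR carries most of its growth signal, with NRP1 as a co-receptor. VEGF-C and VEGF-D act mainly through FLT4 (VEGF receptor 3), which guides lymphatic vessels. ANGPT1, made by cells around the vessel, activates TEK (also called TIE2) and keeps vessels quiet, and ANGPT2 modulates that signal depending on the vessel type. The gallbladder wall is a thin layered organ in which epithelium, fibroblasts, smooth muscle, a serosal mesothelium and small vessels lie close together.

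The promoters of the 4 receptors that separate or join blood and lymphatic endothelium in the values below are printed for comparison. The 250 bases before each start come from RefSeq (GRCm38.p6), 5′ to 3′ on the gene's strand, and end at the base before the start. Capitals mark a GC box (GGGCGG) or an ETS core (AGGAAG), on either strand, with no overlap between them here. The hypoxia-response core ACGTG was also searched on both strands. The windows are chr5:147726012-147726261, minus strand for *Flt1*; chr5:75978456-75978705, minus strand for *Kdr*; chr11:49609429-49609678, plus strand for *Flt4*; and chr4:94739039-94739288, plus strand for *Tek*.
Flt1: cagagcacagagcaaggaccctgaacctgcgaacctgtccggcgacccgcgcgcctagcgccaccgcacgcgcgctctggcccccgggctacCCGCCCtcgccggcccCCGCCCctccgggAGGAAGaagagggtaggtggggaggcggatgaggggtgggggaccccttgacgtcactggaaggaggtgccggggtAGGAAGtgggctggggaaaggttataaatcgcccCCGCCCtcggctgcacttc
Kdr: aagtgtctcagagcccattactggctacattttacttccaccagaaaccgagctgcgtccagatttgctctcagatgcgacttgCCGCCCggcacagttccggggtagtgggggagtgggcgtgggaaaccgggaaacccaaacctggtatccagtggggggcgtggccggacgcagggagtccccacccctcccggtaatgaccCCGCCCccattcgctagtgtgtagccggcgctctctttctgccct
Flt4: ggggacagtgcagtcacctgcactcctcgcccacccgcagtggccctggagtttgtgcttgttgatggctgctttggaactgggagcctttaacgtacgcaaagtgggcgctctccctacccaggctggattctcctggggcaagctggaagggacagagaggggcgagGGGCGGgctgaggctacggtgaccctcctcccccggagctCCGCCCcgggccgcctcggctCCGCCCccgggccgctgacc
Tek: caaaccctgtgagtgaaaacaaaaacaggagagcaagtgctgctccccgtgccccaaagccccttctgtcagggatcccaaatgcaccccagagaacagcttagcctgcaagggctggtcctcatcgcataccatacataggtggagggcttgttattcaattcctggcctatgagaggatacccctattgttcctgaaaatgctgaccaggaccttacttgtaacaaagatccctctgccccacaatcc
The *Flt1* window held 3 GC boxes and 2 ETS cores, the *Kdr* window 2 GC boxes, the *Flt4* window 3 GC boxes, and the *Tek* window neither of them. None of the 4 windows held ACGTG. Of 32851 promoter windows of that length, 32.7% held a GC box, 29.5% an ETS core and 16.6% ACGTG. These matches describe the letters of the window only. RefSeq windows were matched for 8 of the 10 genes, all but *Angpt1* and *Angpt2*.

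All 10 are protein-coding, and their spans in the GENCODE annotation of GRCm38 are as follows. *Vegfa* lies at chr17:46016993-46032369 on the minus strand, *Vegfc* at chr8:54077606-54187096 on the plus strand and *Vegfd* at chrX:164373378-164402650 on the plus strand. *Flt1* lies at chr5:147561604-147726011 and *Kdr* at chr5:75932827-75978458, both on the minus strand, and *Flt4* at chr11:49609263-49652739 on the plus strand. *Nrp1* lies at chr8:128358604-128503363 and *Tek* at chr4:94739289-94874976, both on the plus strand. *Angpt1* lies at chr15:42424723-42676977 and *Angpt2* at chr8:18690263-18741562, both on the minus strand. Of the genes with a RefSeq window, RefSeq and GENCODE give the same start for *Flt1* and *Tek* and different starts for the others.

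Of 27700 barcodes with 252465193 unique molecular identifiers (UMIs, counted RNA molecules), 24993 cells were kept. Library 1 gave 4263 of them, library 2 10933 and library 3 9797, at median depths of 10381, 9330 and 2288 UMIs per cell, so library 3 was the shallowest. Library pairs shared 15 to 22 barcodes. Library 1 held a cluster of 96 cells with the photoreceptor gene *Sag* among its leading genes, none of which entered a class. It also held 135 of the 139 cells of a cluster with *C1qb*, *Xist*, *C1qc* and *Cx3cr1* among its leading genes. *Xist* is expressed from the X chromosome of female cells, which goes against the male label. Of these 139 cells, 52 fell in the macrophage class, in which *Nrp1* was at 77.5 counts per 1000000 UMIs (CPM) with them and 76.4 CPM without them, and *Vegfa* at 190 and 191 CPM.

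Cells were put into classes by markers that include none of the 10 genes. The classes were 662 blood endothelial cells (122, 176 and 364 in libraries 1, 2 and 3), 107 lymphatic endothelial cells (15, 12 and 80), 142 pericytes (59, 61 and 22), 1348 smooth muscle cells, 4898 fibroblasts, 9682 epithelial cells, 319 mesothelial cells, 54 Schwann cells and glia, 679 macrophages, 905 neutrophils and 615 T cells. The labels of the classes held up on the markers named here. In blood endothelium, though, the 5 red blood cell markers summed to 5.93, 4971 and 950 CPM in libraries 1, 2 and 3. In other classes they summed to at most 41.0 CPM over all libraries. *Pecam1* was at 1312 CPM in blood and 636 CPM in lymphatic endothelium. The lymphatic regulator *Prox1* was at 1138 CPM in lymphatic endothelium and at most 33.6 CPM in any other class, and the blood-vessel gene *Plvap* was at 926 CPM in blood and 111 CPM in lymphatic endothelium. Pericytes held *Rgs5* at 11372 CPM, against 258 CPM in smooth muscle, and smooth muscle held *Myh11* at 6430 CPM, against 465 CPM in pericytes. *Dcn* was at 13053 CPM in fibroblasts, *Epcam* at 1049 CPM in epithelium and *Msln* at 1760 CPM in mesothelium, each the highest class. A level is the UMIs of a gene summed over all cells of a class, as CPM. Intervals are 95% limits for counting error alone (exact Poisson for CPM, exact binomial for shares of cells), and they do not cover differences between animals or libraries.

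The vessel lining was the class with the highest level for 6 of the 10 genes, *Flt1*, *Kdr*, *Nrp1* and *Tek* in blood endothelium and *Flt4* and *Angpt2* in lymphatic endothelium. Among all 12883 genes at 10 CPM or more in a class, 17.8% were highest in endothelium. The other 4 genes, all ligands, were highest outside it: *Vegfa*, *Vegfc* and *Vegfd* in fibroblasts and *Angpt1* in pericytes. Counting a gene as present at 10 CPM and 20 UMIs, blood endothelium held 8 of the 10, fibroblasts 7, lymphatic endothelium and smooth muscle 5 each, pericytes and mesothelium 4 each, epithelium 3, and macrophages, neutrophils and T cells 2 each. The same rule was met by 62.9% of the 12883 genes in blood endothelium, 65.8% in fibroblasts, 44.0% in lymphatic endothelium, 62.6% in smooth muscle, 30.4% in pericytes and 60.4% in epithelium. In mesothelium it was met by 65.8%, in macrophages by 55.4%, in neutrophils by 46.1% and in T cells by 56.0%. None of the 10 was present in the Schwann cells and glia, where 4.77% of genes were and where 54 cells limited the count. In endothelium, fibroblasts and pericytes the counts lay near the share of all genes, and nothing is read from them. Without library 1 pericytes held 2, without any 1 of the libraries neutrophils held 1, and without library 1 or library 2 T cells held 1. Without library 1 or library 2 *Vegfa* was highest in neutrophils, and without library 3 lymphatic endothelium had too few cells and 5 of the 10 genes were highest in endothelium.

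*Flt1*, the high-affinity receptor that binds VEGF-A and limits how much of it reaches KDR, was at 2720, 2592 and 3181 CPM in blood endothelium of libraries 1, 2 and 3. The lowest of these lay far above the highest *Flt1* value in any other class and library, 401 CPM in the 22 pericytes of library 3. Of blood endothelial cells, 96.8% (95.2 to 98.0%) held a *Flt1* UMI, against 0.650% (0.177 to 1.66%) of T cells, a class that should lack it, at median depths of 2213 and 2792 UMIs. Thinned to 1000 UMIs per cell, the shares were 88.7% in blood endothelium and 0.213% in T cells. Lymphatic endothelium held 14 *Flt1* UMIs, all in library 3, or 17.6 CPM (9.64 to 29.6). Of all *Flt1* UMIs, blood endothelium held 41.9%, or 43.6, 34.7 and 45.1% in libraries 1, 2 and 3. Epithelium, the class with the most cells, was at 29.5 CPM but held 35.2% of them, or 42.8, 55.8 and 14.3% in the 3 libraries.

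*Kdr*, the main signalling receptor for VEGF-A, was at 801, 686 and 1789 CPM in blood endothelium of the 3 libraries. Libraries 1 and 2 lay close together and library 3 stood above both, 2.23-fold over library 1 and 2.61-fold over library 2. In that class 15.9% of 9400 genes were at least 2-fold higher in library 3 than in each of the others. Without library 3 the level was 758 CPM, against 1141 CPM over all 3. In the same cells the 6 capillary-type markers summed to 2946, 3919 and 7870 CPM in libraries 1, 2 and 3, and the 6 venous-type markers to 1877, 1785 and 771 CPM. Within capillary-type cells *Kdr* was at 945, 732 and 2210 CPM, so library 3 was the highest there too. In lymphatic endothelium *Kdr* was at 1105 CPM over all libraries and 1209 CPM in library 3. A UMI was found in 83.7% of blood and 89.7% of lymphatic endothelial cells, against 0.163% of T cells. Median depths of these classes were 2213, 4539 and 2792 UMIs, so the shares are not matched for depth.

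*Flt4*, the receptor for VEGF-C and VEGF-D, was at 975 CPM (908 to 1046) in lymphatic endothelium and 958 CPM in the 80 lymphatic cells of library 3. The 15 and 12 lymphatic cells of libraries 1 and 2 held 125 and 41 *Flt4* UMIs. In blood endothelium it was at 72.4, 44.5 and 97.4 CPM in the 3 libraries, and in the other classes at 0 to 13.2 CPM, the highest of these from 1 UMI in Schwann cells and glia. A UMI was found in 95.3% of lymphatic, 19.0% of blood endothelial and 0.163% of T cells, again not matched for depth.

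*Nrp1*, the co-receptor that joins VEGF-A and KDR and also binds semaphorins, was at 448, 376 and 567 CPM in blood endothelium. It followed in pericytes at 236, 144 and 260 CPM, in fibroblasts at 161, 107 and 130 CPM and in macrophages at 87.9, 46.7 and 84.1 CPM. The ranges over libraries overlapped between pericytes and fibroblasts, and neither reached the range of blood endothelium. Lymphatic endothelium held 3 *Nrp1* UMIs in 107 cells, 3.78 CPM. Of all *Nrp1* UMIs, fibroblasts held 35.4%, epithelium 23.1% and blood endothelium 14.6%. T cells, some of which are known to carry this receptor, stood at 40.0, 27.2 and 50.3 CPM, which overlapped smooth muscle at 46.2, 33.3 and 32.7 CPM. A *Nrp1* UMI was found in 60.4% of blood endothelial cells and in 0.663% of neutrophils, at median depths of 2213 and 1189 UMIs. Neutrophils were picked for this because their level was near 0, and the shares are not matched for depth.

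*Tek*, the angiopoietin receptor, was at 192, 158 and 181 CPM in blood endothelium, a narrow range, and 35.5% of those cells held a UMI. Lymphatic endothelium was at 66.8 CPM pooled and 69.3 CPM in library 3. Mesothelium followed at 13.4 CPM and fibroblasts at 10.1 CPM, with overlapping ranges over libraries. Neutrophils and T cells held no *Tek* UMI, which allows a level of up to 2.12 and 1.40 CPM at 3 counts.

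**Figure D1:**
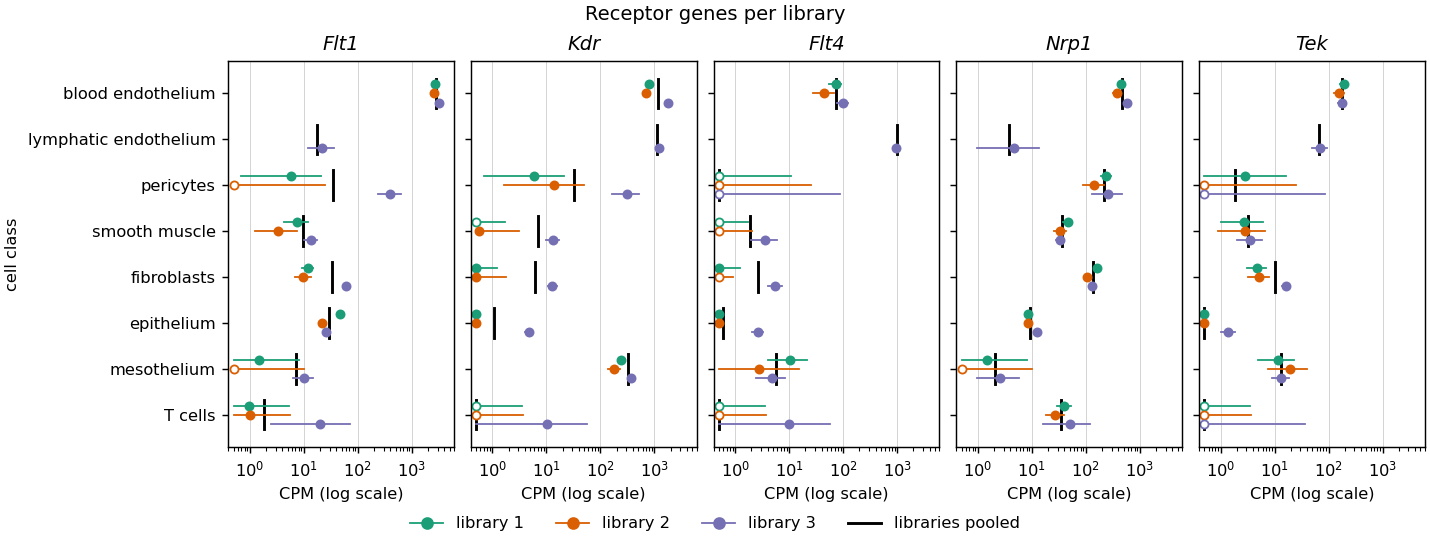
Receptor levels in CPM (log axis) per library, by cell class, with exact 95% counting intervals; the black tick is the pooled level, and open points are libraries with no UMI, drawn at 0.5 CPM. Only libraries with at least 20 cells of a class are drawn, so lymphatic endothelium shows library 3 alone; blood endothelium leads for *Flt1*, *Nrp1* and *Tek*, while *Flt4* is highest in lymphatic endothelium.

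*Kdr* was also found outside vessels. In mesothelium, the flat cell layer on the serosal surface, library 1 had 244 CPM, library 2 had 180 CPM and library 3 had 375 CPM of it. A *Kdr* UMI was seen in 75.5% (70.5 to 80.2%) of mesothelial cells, or 29.8% at 1000 UMIs per cell, against 0.0791% of T cells at that depth. The endothelial genes *Pecam1* and *Cdh5* were at 5.07 and 2.09 CPM in the same cells and *Flt1* at 7.15 CPM. The 8 endothelial markers summed to 119 to 255 CPM over libraries in mesothelium, against 5169 to 5700 CPM in blood endothelium, and 1 of the 8 reached 10 CPM. Mesothelial cells also held *Vegfd* at 24.7, 13.6 and 20.4 CPM and *Tek* at 11.6, 19.1 and 13.0 CPM. The fibroblast marker *Dcn* was at 4390 CPM in them, in 98.7% of cells. The 8 fibroblast markers summed to 5073 CPM in mesothelium, against 28842 CPM in fibroblasts. The part of fibroblast RNA in these *Vegfd* and *Tek* values was not tested.

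Pericytes gave a contrasting case. *Flt1* was at 5.76, 0 and 401 CPM in the pericytes of libraries 1, 2 and 3, and *Kdr* at 5.76, 13.7 and 307 CPM. The library 3 values came from 22 cells, of which 4 held *Flt1* and 3 held *Kdr*, and 1 cell carried 11 of the 17 *Flt1* UMIs. In those 22 cells the endothelial marker *Pecam1* was at 213 CPM and *Cdh5* at 118 CPM, against 0 to 6.84 CPM for *Pecam1* and no *Cdh5* UMI in the pericytes of libraries 1 and 2. The summed endothelial markers in pericytes were 420, 554 and 1063 CPM in the 3 libraries. Their part in these receptor values was not tested.

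Blood and lymphatic endothelium divided the 10 genes. The rule asked for a 2-fold difference of the pooled levels on the same side in library 3, the library with 20 cells of both, and 6 of the 10 genes passed it, where 26.6% of 9178 genes did. *Vegfc*, *Flt1*, *Nrp1* and *Tek* were higher in blood endothelium, where 12.2% of genes were. *Flt1* was 162-fold (96.6 to 297) and *Nrp1* 126-fold (42.9 to 611) higher there, and *Tek* 2.70-fold (2.02 to 3.67). *Vegfc* had 53 UMIs in blood and none in lymphatic endothelium. With the lymphatic count set to a floor of 3 over the class, its ratio was 6.59, and the exact 95% lower limit of the ratio from counting error was 5.18.

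*Flt4* and *Angpt2* were lower in blood endothelium, where 14.4% of genes were. Their ratios of blood over lymphatic endothelium were 0.0771 (0.0646 to 0.0916) for *Flt4* and 0.261 (0.183 to 0.369) for *Angpt2*. *Kdr* stood at 1.03 (0.956 to 1.12), an interval that leaves out a 2-fold difference in either direction in the pooled counts. Within library 3 alone *Kdr* was at 1789 CPM in blood and 1209 CPM in lymphatic endothelium. *Angpt2* was at 13.9 CPM in blood and 88.3 CPM in lymphatic endothelium of that library. *Vegfa* had a pooled ratio of 1.82 (1.29 to 2.62), short of the rule, and within library 3, which gave most of the lymphatic cells, it was at 54.4 CPM in blood and 45.7 CPM in lymphatic endothelium. *Vegfd* and *Angpt1* were under 10 CPM in both and were not compared.

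**Figure D2:**
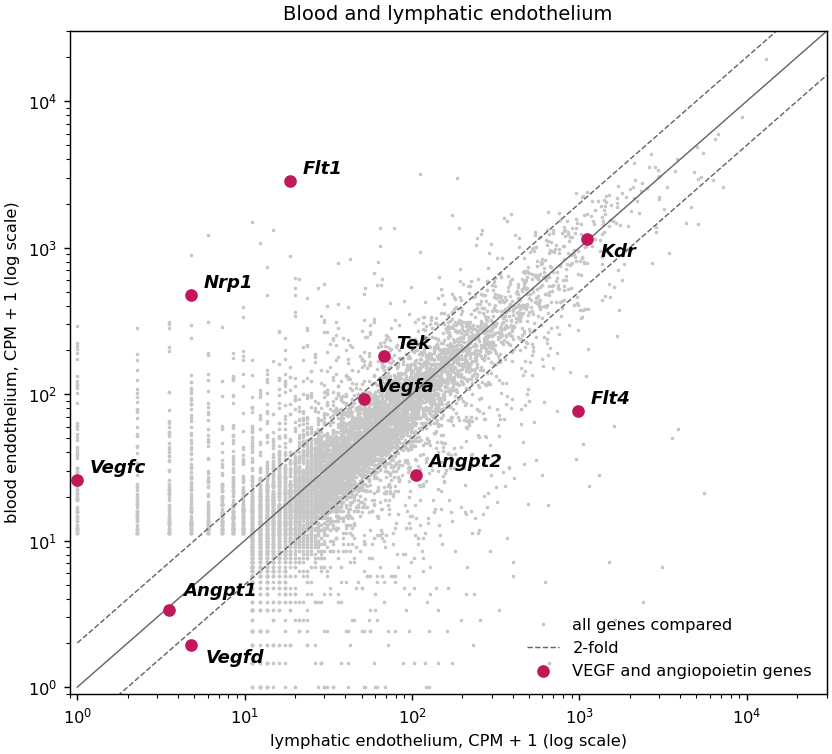
Level in blood endothelium (vertical) and lymphatic endothelium (horizontal) of 9178 genes at 10 CPM or more in either, as CPM + 1 on log axes, libraries pooled; dashed lines mark 2-fold. *Flt1* and *Nrp1* lie far above the diagonal, *Kdr* lies on it, and *Flt4* and *Angpt2* lie below it.

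Some pairs of these genes were also detected together in the same cells. In blood endothelium 81.4% of cells held both *Flt1* and *Kdr*, and 0.906% held neither. In lymphatic endothelium 86.9% held both *Kdr* and *Flt4*, and 6.54% held both *Flt1* and *Kdr*. A cell with *Kdr* and *Flt4* together was found in 17.4% of blood endothelial cells, 34.4, 9.09 and 15.7% in libraries 1, 2 and 3. These shares depend on depth: median UMIs per blood endothelial cell were 5979, 2396 and 1779 in the 3 libraries. Over all libraries the median was 2213 in blood and 4539 in lymphatic endothelium. *Tek* and its ligand *Angpt2* were found together in 11.2% of lymphatic and 2.57% of blood endothelial cells. A joint share is high wherever both genes are found in most cells taken singly. The joint shares were not set against the separate ones, so no link between genes within a cell is read from them.

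Within blood endothelium, *Flt1*, *Kdr*, *Flt4* and *Nrp1* were higher in capillary-type than in venous-type cells of each library, while *Tek* overlapped between them. The 449 capillary-type cells, gated on markers such as *Rgcc*, *Gpihbp1* and *Cd36*, held *Flt1* at 3302, 2920 and 3688 CPM in the 3 libraries. The 96 venous-type cells, gated on markers such as *Ackr1*, *Selp* and *Vwf*, held it at 1401, 1825 and 1345 CPM. The sub-type ranges did not overlap for *Flt1*, and likewise for *Nrp1*, at 521, 460 and 721 CPM in capillary-type and 170, 113 and 173 CPM in venous-type cells.

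For *Kdr* the pooled levels were 1407 CPM in capillary-type and 530 CPM in venous-type cells, higher in capillary-type cells of each library. The largest gap was in library 3, at 2210 CPM in capillary-type and 713 CPM in venous-type cells. *Flt4* was at 92.0 CPM in capillary-type and 16.9 CPM in venous-type cells, the second value resting on 7 UMIs. *Tek* was at 170 CPM (148 to 193) in capillary-type and 195 CPM (155 to 243) in venous-type cells, with overlapping ranges over libraries.

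*Angpt2* had 43 UMIs in capillary-type cells, 32.2 CPM, and 1 UMI in venous-type cells. *Vegfa* was at 110 CPM in capillary-type and 38.5 CPM in venous-type cells. The 80 blood endothelial cells that entered no sub-type held 14 *Angpt2* UMIs, 57.3 CPM, and *Vegfa* at 111 CPM. *Flt1* and *Kdr* in them were at 2587 and 950 CPM, between capillary-type and venous-type cells. Only 37 cells were arterial-type, too few for a level by the minimum of 50 cells. The sub-types were gated on other genes of the same cells, so these values are a description.

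*Vegfa*, the ligand made by many cells short of oxygen, was present in 10 of the 11 classes, the most of the 10 genes. Fibroblasts were at 410, 469 and 169 CPM in libraries 1, 2 and 3, so library 3 lay far below the others. Neutrophils were at 324, 289 and 311 CPM and epithelium at 232, 190 and 207 CPM, both close between libraries. Macrophages were at 219, 175 and 70.4 CPM and pericytes at 202, 164 and 47.2 CPM, with library 3 lowest in both. The range of fibroblasts overlapped those of neutrophils, epithelium, macrophages and pericytes, and in library 3 fibroblasts lay below neutrophils and epithelium. The ranges of epithelium, macrophages and pericytes also overlapped each other. Blood endothelium was at 107, 125 and 54.4 CPM, and T cells were lowest, at 15.2, 16.1 and 20.1 CPM.

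Epithelial cells, the class with the most cells and the most UMIs per cell, held 76.7% of all *Vegfa* UMIs, 70.4, 84.5 and 69.3% in the 3 libraries, and fibroblasts held 12.4%. A *Vegfa* UMI was present in 82.7% of epithelial cells, at a median of 13326 UMIs, and in 4.72% of T cells, at 2792 UMIs. At 1000 UMIs per cell the shares were 17.5% of epithelial cells, 21.4% of fibroblasts, 20.4% of neutrophils and 1.5% of T cells.

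*Vegfc* and *Vegfd*, the lymphatic growth factors, were mainly fibroblast genes. *Vegfc* in fibroblasts was at 57.5, 43.6 and 62.7 CPM, above blood endothelium at 35.6, 6.07 and 25.3 CPM and smooth muscle at 14.3, 11.9 and 22.2 CPM, whose ranges overlapped each other but not that of fibroblasts. Fibroblasts held 66.0% of its UMIs. *Vegfd* in fibroblasts was at 25.7, 20.8 and 61.4 CPM, with library 3 above both others and a level of 23.7 CPM without it, against 40.7 CPM over all 3. Of its UMIs 67.2% were in fibroblasts. Mesothelium overlapped this range. No UMI of either gene was found in T cells.

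*Angpt1*, the agonist of TEK, was highest in cells that surround vessels and form the stroma. Pericytes were at 51.8, 88.9 and 47.2 CPM, the last from 2 UMIs, fibroblasts at 29.7, 43.8 and 50.2 CPM, and smooth muscle at 16.2, 20.9 and 30.8 CPM. Neighbours in this order overlapped in their ranges over libraries. Epithelium was lower per UMI, at 12.2, 14.1 and 17.9 CPM, yet held 67.0% of all *Angpt1* UMIs, and 19.2% of its cells had a UMI, against 0.163% of T cells. Blood endothelium held 5 *Angpt1* UMIs in 662 cells and lymphatic endothelium 2 in 107.

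*Angpt2*, the second angiopoietin, was at 105 CPM (83.3 to 130) in lymphatic endothelium and 88.3 CPM there in library 3. Pericytes were at 46.1, 68.4 and 0 CPM, with no UMI in the 22 cells of library 3. Blood endothelium was at 33.2, 38.4 and 13.9 CPM and smooth muscle at 4.62, 4.51 and 19.6 CPM. Library 3 was thus the lowest library in blood endothelium and the highest in smooth muscle. Fibroblasts held 6 UMIs in 4898 cells, and macrophages and T cells none.

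**Figure D3:**
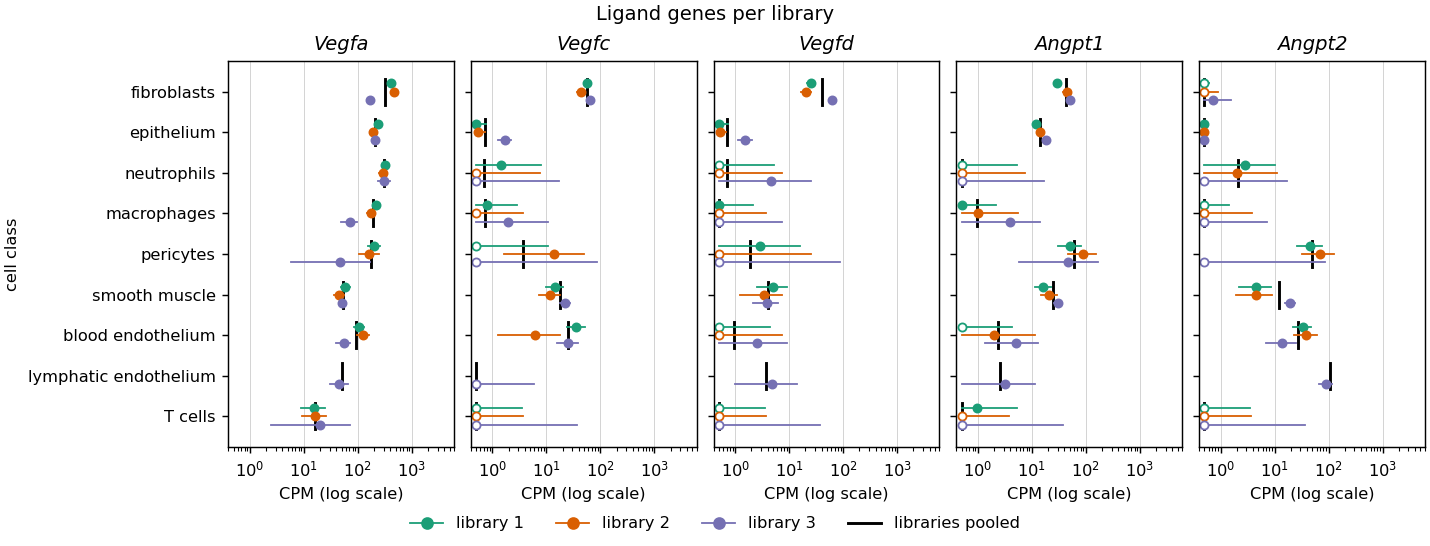
Ligand levels in CPM (log axis) per library, by cell class, drawn as for the receptors, with open points at 0.5 CPM for libraries with no UMI. *Vegfa* spans most classes, *Vegfc* and *Vegfd* are highest in fibroblasts, *Angpt1* in pericytes, fibroblasts and muscle, and *Angpt2* in lymphatic endothelium and pericytes.

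Library 3 stood apart for several of the 10 genes. In fibroblasts it was at least 2-fold lower than each of the others for *Vegfa* (4.34% of 9290 genes were) and higher for *Vegfd*, *Flt1*, *Kdr* and *Tek* (16.4% were). *Flt1* in fibroblasts was at 12.0, 9.80 and 60.1 CPM, *Tek* at 4.73, 5.14 and 16.5 CPM, and *Kdr* at 0.338, 0.490 and 12.9 CPM in libraries 1, 2 and 3. The fibroblast clusters described below held unequal shares of the libraries: library 3 gave 692 of the 737 cells of the *Scara5*-led cluster, 997 of the 1304 of the *Adamtsl2*-led cluster and 382 of the 1463 of the *H19*-led cluster. In blood endothelium *Kdr* was higher and *Angpt2* lower, the second where 5.02% of genes were. In smooth muscle *Kdr* and *Angpt2* were higher, where 10.7% of 8854 genes were, and none of the members at 10 CPM in a library was lower, where 3.75% were. *Kdr* and *Tek* in fibroblasts and *Kdr* and *Angpt2* in smooth muscle reached that minimum in library 3 alone. In epithelium *Vegfa*, *Flt1*, *Nrp1* and *Angpt1* reached it and none of them passed either way, where 5.7% of 8573 genes were higher and 1.77% lower.

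Endothelial genes were also higher in library 3 in most classes outside endothelium. *Kdr* was at 0.271, 0.316 and 4.76 CPM in epithelium, and the vessel genes *Egfl7* and *Emcn* were at 11.3 and 9.34 CPM in fibroblasts of library 3, against at most 0.490 CPM in libraries 1 and 2. The 8 endothelial markers summed to 27.2, 32.9 and 58.1 CPM in epithelium of libraries 1, 2 and 3, to 110, 93.7 and 143 CPM in smooth muscle and to 119, 153 and 255 CPM in mesothelium. Among leukocytes the same sums were 28.8, 16.2 and 60.6 CPM in macrophages, 21.3, 24.4 and 128 CPM in neutrophils and 58.1, 41.4 and 111 CPM in T cells. Library 3 was highest in each of these and in pericytes, whereas fibroblasts, at 288, 311 and 172 CPM, were lowest in it. The 8 blood endothelial markers summed to 472, 452 and 917 CPM in fibroblasts, but only 2 of the 8 reached 10 CPM there, and 1 of the 8, *Ly6c1*, was a leading gene of the fibroblast cluster led by *Scara5*. The part of this RNA, of depth and of cluster shares in the library differences was not tested, and library and exposure group cannot be told apart.

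Within epithelium *Flt1* split the clusters. The 1458 cells of a cluster led by *Cxcl5*, *Lcn2* and *Ccl20*, of which *Lcn2* encodes an antibacterial protein and the others chemokines, held *Flt1* at 113 and 60.7 CPM in libraries 1 and 2, where 50.5% of cells had a UMI. The 2986 cells of a cluster led by *Ctrb1*, *Cited1* and *Aqp1* held it at 1.37 and 1.39 CPM in libraries 1 and 2 and had no *Flt1* UMI in library 3. These clusters had median depths of 18397 and 13334 UMIs. *Kdr* was at 0.297 CPM in the first of them and 0.0726 CPM in the second, and *Pecam1* was at 1.13 CPM over all epithelial cells. A cluster of 471 cells led by *Cp* and *Igfbp5*, 424 of them from library 3, held *Flt1* at 64.9 CPM in that library.

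Between these first 2 clusters *Vegfa* and *Nrp1* ran the other way. They were at 175 and 4.02 CPM in the *Cxcl5*-led cluster and at 239 and 13.2 CPM in the *Ctrb1*-led cluster. The *Cp*-led cluster did not share this for *Vegfa*, at 322 and 217 CPM in libraries 1 and 3, against 301 and 179 CPM in the *Ctrb1*-led cluster. *Angpt1* was highest in the *Cp*-led cluster, at 34.2 CPM, and lowest in the *Ctrb1*-led cluster, at 6.08 CPM. A cluster of 61 cells led by *Gng13*, *Lrmp*, *Alox5ap*, *Rgs13* and *Dclk1*, genes known from tuft cells, held *Tek* at 22.9 CPM (13.8 to 35.7), while all epithelial cells together stood at 0.306 CPM. That level rested on 19 UMIs, under the minimum for present. Only library 3, with 34 of the cells, had enough cells for a library value. Clusters were made from all variable genes in these same cells, so these values describe them.

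Fibroblast clusters separated the ligands as well. The cluster led by *Adamtsl2*, *Smoc2* and *Sfrp1* held *Vegfd* at 80.1, 60.0 and 99.8 CPM in libraries 1, 2 and 3, and *Flt1* at 65.5, 60.0 and 134 CPM. The cluster led by *H19*, *Nrg1* and *Bmp7* held *Vegfd* at 15.9, 12.1 and 40.7 CPM and *Flt1* at 2.58, 0.310 and 7.02 CPM, below the first cluster in every library. It held *Vegfa* at 430, 506 and 206 CPM, against 337, 339 and 124 CPM in the *Adamtsl2*-led cluster. Library 3 was lowest for *Vegfa* in both. For *Vegfd* library 3 was over 2-fold above the others in the *H19*-led cluster but not in the *Adamtsl2*-led one.

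*Tek* in fibroblasts sat in a cluster of 737 cells led by *Scara5*, *Fbln2* and *Mfap5*, at 107 and 67.0 CPM in libraries 2 and 3. The first value came from 26 cells, too few to rank the libraries. The other fibroblast clusters were at 3.76 to 8.85 CPM pooled. Over libraries 1, 2 and 3, library 3 was highest in the *H19*-led cluster, at 2.58, 3.72 and 7.72 CPM. It was also highest in the *Adamtsl2*-led cluster, at 4.85, 3.43 and 6.24 CPM. Library 1 was highest in the clusters led by *Igfbp3*, at 8.80, 0 and 3.44 CPM, and by *Gm26917*, at 27.2, 0 and 7.52 CPM. *Pecam1* over all fibroblasts was at 3.21, 4.16 and 9.71 CPM in libraries 1, 2 and 3. *Angpt1* was at 64.3 CPM in the cluster led by *Igfbp3* and *Cadm1* and at 15.96 CPM in the *Scara5*-led cluster.

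Smooth muscle held 2 main clusters. In the 550 cells led by *Sorbs2*, *Notch3* and *Epas1*, *Angpt2* was at 37.7, 28.6 and 47.4 CPM in the 3 libraries, and in the 777 cells led by *Pnoc*, *Tnnt2* and *Igfbp2* at 0.520, 3.04 and 3.08 CPM. Of the 550 cells, 490 were from library 3, against 406 of the 777. *Vegfa* was at 184, 162 and 81.9 CPM in the *Sorbs2*-led cluster and at 43.7, 36.4 and 33.1 CPM in the *Pnoc*-led cluster. *Nrp1* and *Vegfc* were the other way round, at 13.3 and 7.97 CPM in the *Sorbs2*-led cluster and at 42.7 and 21.1 CPM in the *Pnoc*-led cluster.

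**Figure D4:**
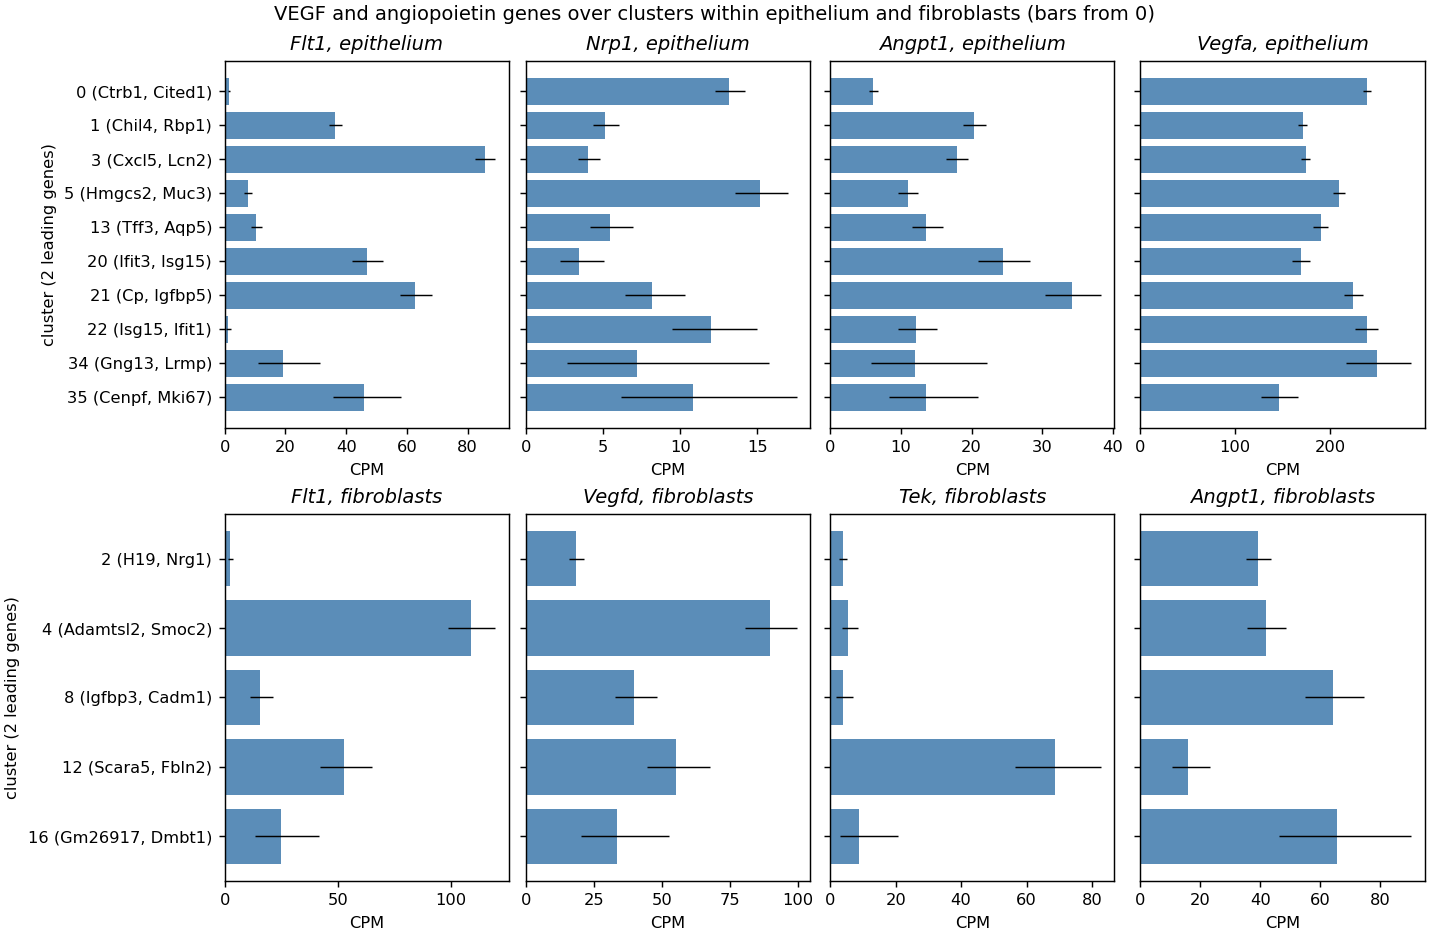
Level in CPM of selected genes in the clusters of epithelium (top) and fibroblasts (bottom), libraries pooled; each cluster is named by its number and its 2 leading genes, and error lines are exact 95% counting intervals. *Flt1* is near 0 in the *Ctrb1*-led epithelial cluster and in the *H19*-led fibroblast cluster, and *Tek* stands out in the *Scara5*-led fibroblast cluster.

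Other genes of both pathways filled in the picture. Of 3 further ligands, *Pgf*, which binds FLT1, was at 151 CPM in mesothelium, 139 CPM in lymphatic endothelium, 48.1 CPM in fibroblasts and 3.76 CPM in blood endothelium. *Vegfb*, also a ligand of FLT1, was at 55.6 CPM in smooth muscle and 34.8 CPM in epithelium. *Angpt4*, a further ligand of TEK, was at 24.0 CPM in fibroblasts and 19.0 CPM in smooth muscle, and in fibroblasts library 3 was highest, at 45.1 CPM, against 7.44 and 5.14 CPM in libraries 1 and 2.

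All 4 further receptor genes were present in both kinds of endothelium, where 62.9% of all genes in blood and 44.0% in lymphatic endothelium were. The counts of this and the next lists stand beside those shares, and nothing is read from them about the lists. *Ptprb*, the phosphatase that restrains TEK, was at 1318 CPM in blood and 261 CPM in lymphatic endothelium. *Tie1*, the partner of TEK, was at 273 and 278 CPM in them, and *Plxnd1*, a semaphorin receptor, at 230 and 121 CPM. *Nrp2*, the co-receptor of FLT4, was at 247 CPM in blood and 396 CPM in lymphatic endothelium, and at 381 CPM in smooth muscle. Of the 3 genes that mature VEGF-C or act beside it, *Svep1* was at 67.8, 59.8 and 239 CPM and *Ccbe1* at 8.62, 5.63 and 39.3 CPM in fibroblasts of libraries 1, 2 and 3, highest in library 3. *Adamts3*, the protease that cuts VEGF-C, was at 4.28 CPM there, below the minimum for present.

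Of 9 genes of tip cells and the VEGF response, 8 were present in blood and 5 in lymphatic endothelium, the second near the 44.0% of all genes. That list's sum was highest in neutrophils through the chemokine receptor *Cxcr4*, at 1700 CPM, with *Egr3* at 94.7 CPM and *Rcan1* at 88.4 CPM. *Egr3* there was at 35.5, 34.5 and 421 CPM over libraries, so library 3 set its level. All 6 Notch genes were present in blood endothelium (62.9% of all genes), with the receptor *Notch1* at 609 CPM and the ligands *Dll4* at 208 CPM and *Jag2* at 135 CPM. All 10 oxygen-sensing genes were present there, led by *Epas1* at 1156 CPM, *Hif1a* at 326 CPM and *Egln1* at 74.7 CPM, against 9 of 10 in epithelium (60.4% of all genes) and 8 of 10 in fibroblasts (65.8%).

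All 5 genes of pericyte recruitment were present in blood endothelium (62.9% of all genes), led by *Hbegf* at 1028 CPM, *S1pr1* at 740 CPM and *Pdgfb* at 303 CPM. *Hbegf* was at 1445, 1554 and 253 CPM over libraries 1, 2 and 3, and *Pdgfb*, the ligand that draws pericytes to vessels, at 142, 117 and 590 CPM. Of 4 genes that respond to angiopoietins, lymphatic endothelium held 3, led by the flow-responsive factor *Klf2* at 2875 CPM, with *Icam1* at 241 CPM and *Foxo1* at 219 CPM. Blood endothelium held all 4, with *Klf2* at 567, 558 and 2794 CPM in libraries 1, 2 and 3.

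Likeness was measured as Pearson's r of log2(CPM + 10) over 29 sums of a class in a library, across 12883 genes. These sums share libraries and depths, and the values are a description. Closest to *Flt1* were *Cyp1a1* (r = 0.97), *Ly6c1* (0.96), which is also a marker of the blood endothelial gate, and *Mcf2l* (0.96), and closest to *Kdr* were *Adgrf5* (0.98), *Unc45b* (0.97) and *Ephb1* (0.97). *Flt4* was nearest to *Fam57b* (0.96), *Wipf3* (0.95) and *Myzap* (0.94), *Tek* to *Myct1* (0.95), *Tmem44* (0.94) and *4930578C19Rik* (0.94), and *Nrp1* to *Ifi203* (0.82), *Irgm1* (0.82) and *Ints13* (0.82). Among ligands, *Vegfa* was nearest to *Alas1* (0.80), *Ets2* (0.79) and *Cd63* (0.70), *Vegfc* to *Arhgap20* (0.86), *Ssc5d* (0.84) and *Ltbp2* (0.82), and *Vegfd* to *Slc1a3* (0.97), *Aox3* (0.94) and *Omd* (0.92). *Angpt1* was nearest to *Tmem45a* (0.94), *Osr2* (0.91) and *Pcdh18* (0.90), and *Angpt2* to *Foxc2* (0.89), *Apold1* (0.83) and *Ebf1* (0.79).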

How the data were processed

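The submitters' processing notes name Cell Ranger 6.1.1 and the GRCm38 (mm10) build. The annotation and the handling of reads shared between genes are not given in the sources used here. The deposited matrix holds raw UMI counts, whole numbers with no normalization, for 31053 genes and 27700 barcodes of 3 libraries. No barcode number could be tied to a group, so each library is reported by number.

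Barcodes under 300 detected genes or over 20% mitochondrial UMIs were dropped, and 1024 doublets (3.94%) were removed with Scrublet in scanpy 1.11.5 (expected rate 6%, score threshold 0.25). A cell entered the class with the largest share of its markers detected, given at least 3 markers and a lead of 0.25 over the next class; 3812 kept cells entered none. Endothelium and leukocytes were split by the same rule, and 123 endothelial cells and 1647 leukocytes stayed unsplit. Blood endothelial sub-types needed 2 markers and a lead of 1. Classes needed 50 cells, and library values 20. Counts were summed per class and given as CPM. Clusters came from Leiden at resolution 1.0 with leidenalg 0.10.2, on 2000 variable genes and 30 components.

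The genes named are the 10, the 3 genes most like each, and 8 pathway lists, of which the first 3 are named in full and the others by their 3 highest genes. The genes and lists were chosen with earlier results of these data known, the clusters and their leading genes were picked for description after their values were seen, and the limits of the gate were set with the data in view. The fold rule, without its condition on library 3, was tried on simulated counts of better expressed genes only. No library effect was simulated, so the trial does not cover low counts such as those of *Vegfc*. Python 3.11.15, numpy 2.4.6, scipy 1.17.1 and pandas 2.3.3 were used. Free RNA and depth limit what low shares of cells can show.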

Additional observations from a re-analysis of the deposited data

How the results depend on the processing

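The counts of 6 genes highest in endothelium and 6 differing between blood and lymphatic endothelium did not move by over 1.5 times in any alternative that gave a value. These changed the marker minimum, mixed-marker cells, mitochondrial limit, gene minimum, doublets, clustering in place of gating, library weights and libraries left out, and for the second count also the fold and level minimum. Without library 3 lymphatic endothelium had too few cells for a value. Numbers of the 10 genes present moved more. At 50 CPM they were 3 in fibroblasts, 2 in mesothelium, 1 each in epithelium, smooth muscle and neutrophils, and 0 in T cells; at 5 CPM and 10 UMIs mesothelium held 7. With 4 markers neutrophils and T cells held 1 each, and with Leiden clusters macrophages held 4 and Schwann cells and glia 1. Leaving out 1 library in turn gave 1 to 2 genes in T cells, 1 to 1 in neutrophils and 2 to 4 in pericytes, 2 of them without library 1. The cause was not tested. *Vegfa* was highest in neutrophils rather than fibroblasts in 5 of 11 alternatives, among them without library 1 and without library 2, and *Kdr* in lymphatic endothelium in 2 of 11. Without library 3, *Kdr* in blood endothelium was at 758 CPM and *Vegfd* in fibroblasts at 23.7 CPM. Thinned to 1000 UMIs, the share of cells with a UMI was 63.2% for *Flt4* in lymphatic and 15.7% for *Tek* in blood endothelium. No paired analysis was possible because each group is 1 library and the barcode numbers are not tied to groups.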
